A study of Sus scrofa with 9 samples.

Results

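KLRK1, CD96, FCGR3A, NCR1, HCST, TYROBP and FCER1G encode receptors and signalling adaptors best known from natural killer cells, several of which are also used by cytotoxic T cells. Their transcripts were followed in T cells sorted from pig blood. Members were chosen by name, and every probe whose transcript accession maps to one of these 7 pig genes was taken, which gave 12 of the 43603 probes on the array. They are 7 of the 3052 genes that could be named. FCGR3A and HCST had 3 probes each, TYROBP had 2, and the other members had 1 each.

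Mononuclear cells of sows were separated on Percoll and sorted into 3 fractions. These were double positive cells (CD3+CD4+CD8+), CD8 cells (CD3+CD8+) and CD4 cells (CD3+CD4+), with 3 arrays per fraction and 9 in all. The design text calls the 3 arrays of a fraction biological replicates and sets the double positive cells against each of the other fractions. No treatment is named for any fraction, and the strain, age and number of the sows, the antibodies and the purity of the sorts are not given in the sources used here. Each RNA sample was amplified as a whole transcriptome before labelling with Cy3. Nothing in the labels says whether the arrays of a fraction come from different animals, so p-values measure the spread between these arrays.

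An activating receptor of natural killer cells often has no signalling tail of its own and depends on a small partner in the membrane. KLRK1, better known as NKG2D, binds stress-induced ligands and in human cells pairs with HCST (DAP10), which recruits phosphoinositide 3-kinase and GRB2. FCGR3A, or CD16, binds antibody on target cells, and NCR1 is the natural cytotoxicity receptor NKp46. In human cells both signal through FCER1G and CD247, which carry the tyrosine motif called ITAM. TYROBP (DAP12) is another ITAM adaptor, used by several receptors of natural killer and myeloid cells, and CD96 binds the poliovirus receptor and related adhesion molecules.

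Values are processed signals in arbitrary units. The log2 values are relative to the 75th percentile of all probes of that array, so 0 is the level of that percentile. The percentile itself lay at 19.0 to 42.5 units on double positive arrays, 18.4 to 29.7 on CD8 arrays and 15.2 to 84.1 on CD4 arrays. The scanner software called 38.1% to 45.9% of the probes well above background on double positive arrays, 33.9% to 45.5% on CD8 arrays and 32.6% to 53.7% on CD4 arrays. Per the file headers, slide 1 held double positive array 1 alone, and slides 2 and 3 held 4 arrays each from all 3 fractions. The sorting markers followed the labels: CD8A was higher in double positive than in CD4 cells (log2 difference 3.20, limma adjusted p = 0.0179), and CD4 was higher in double positive than in CD8 cells (4.17, adjusted p = 0.0208). CD3D, CD3E and CD3G were well above background on every array.

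Of the 6 member genes that could be tested, each by its brightest probe, KLRK1 was higher in double positive than in CD4 cells and the other 5 did not pass. Over all 16024 tested probes, 0.293% passed in that comparison, 0.225% as higher in double positive cells. CD96 was lower in double positive than in CD8 cells and the other 5 did not pass, where 0.312% of the tested probes passed, 0.181% as lower in double positive cells. KLRK1 and CD96 were higher in CD8 than in CD4 cells and the other 4 did not pass, where 0.437% of the tested probes passed, 0.325% as higher in CD8 cells. CD96 entered the tested probes through the CD8 arrays alone, so its part in these counts is not independent of that filter. The arrays did not overlap for 2 of the 6 genes between double positive and CD4 cells, both higher in double positive cells, as for 5.22% of all tested probes. They did not overlap for 1 gene between double positive and CD8 cells, lower in double positive cells (5.2% of all tested probes), and for 4 genes between CD8 and CD4 cells, higher in CD8 cells (4.24% of all tested probes). The median log2 difference of the 6 genes was 0.08 between double positive and CD4 cells, -0.92 between double positive and CD8 cells and 2.17 between CD8 and CD4 cells. The same medians over all tested probes were -0.02, -0.03 and 0.01. NCR1 stands outside these counts because none of the 9 arrays showed it clearly above background.

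**Figure D1:**
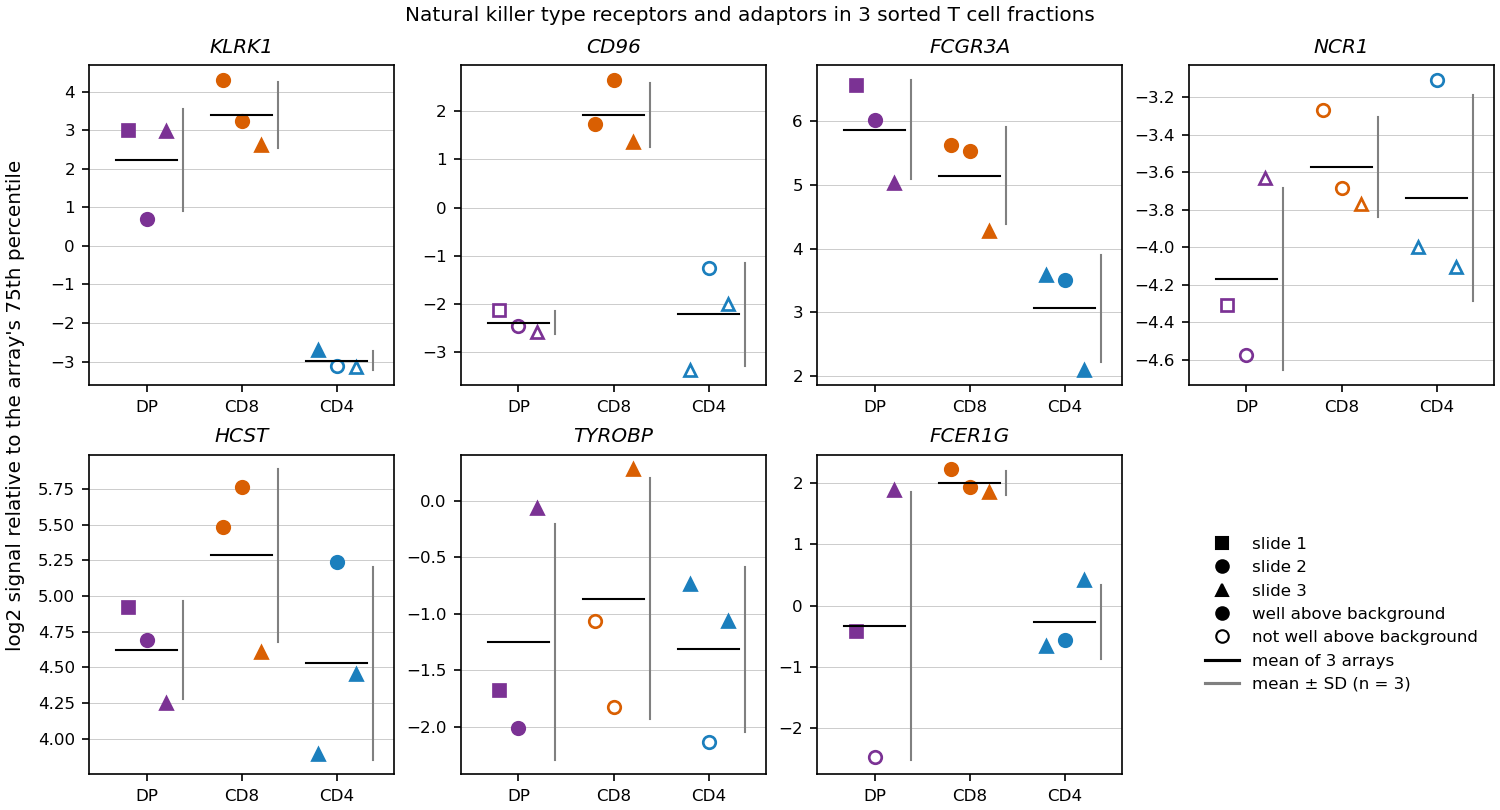
Log2 signal of the brightest probe of each of the 7 genes, relative to the 75th percentile of the array (vertical axis, with a scale of its own in each panel), on the 3 double positive, 3 CD8 and 3 CD4 arrays. Point shape gives the slide, open points are not well above background, black lines are means and grey lines are mean ± SD. KLRK1 and FCGR3A were higher on all 3 double positive and all 3 CD8 arrays than on any CD4 array, and CD96 was well above background on the 3 CD8 arrays only.

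KLRK1 and FCGR3A were the receptors whose arrays lay higher in both CD8-bearing fractions than in CD4 cells. KLRK1 gave signals of 318, 68.5 and 150 units in double positive cells, 365, 229 and 184 units in CD8 cells, and 12.9, 1.77 and 3.26 units in CD4 cells. On the log2 scale these were 3.00, 0.69 and 2.98 in double positive cells, 4.31, 3.24 and 2.63 in CD8 cells, and -2.70, -3.11 and -3.14 in CD4 cells. No CD4 array overlapped an array of another fraction, and double positive array 2 lay below the other double positive arrays. Detection well above background was called on every double positive and CD8 array and on 1 of the 3 CD4 arrays, the array with the highest 75th percentile.

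KLRK1 averaged 2.22 ± 1.33 in double positive cells, 3.39 ± 0.85 in CD8 cells and -2.98 ± 0.25 in CD4 cells (log2, SD, n = 3 arrays each). Against CD4 cells the folds rest on 2 arrays not well above background and 1 that was. Their size is less sure than their direction. KLRK1 was 36.9-fold higher in double positive than in CD4 cells (log2 difference 5.21, SE 0.63, 95% interval 3.84 to 6.57, limma adjusted p = 0.00589). It was 83.0-fold higher in CD8 than in CD4 cells (log2 difference 6.38, interval 5.01 to 7.74, limma adjusted p = 0.000986), and normexp with quantile normalization gave 2.53 (adjusted p = 0.0249). Between double positive and CD8 cells the log2 difference of -1.17 did not pass (interval -2.54 to 0.20, adjusted p = 0.876), and without double positive array 2 it was -0.40. That difference was -3.09 within slide 2 and 0.35 within slide 3. The difference between double positive and CD4 cells was 3.79 within slide 2 and 5.90 within slide 3. It did not pass with slide as a block (4.86, limma adjusted p = 0.12), without double positive array 1 (4.82, adjusted p = 0.0536) and with normexp background correction and quantile normalization (1.72, adjusted p = 0.153). In RNA from sorted cells, fewer cells with a transcript and less of it per cell cannot be told apart.

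FCGR3A was detected in every fraction. Its brightest probe gave 3764, 2763 and 618 units in double positive cells, 911, 1127 and 572 units in CD8 cells, and 1011, 173 and 122 units in CD4 cells. Relative to the array's 75th percentile these were 6.57, 6.02 and 5.02 in double positive cells, 5.63, 5.54 and 4.27 in CD8 cells, and 3.59, 3.51 and 2.09 in CD4 cells. All 9 arrays were well above background, so unlike KLRK1 the CD4 cells also gave a clear signal. On this relative scale the highest CD4 array lay below the lowest array of either other fraction.

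The brightest FCGR3A probe averaged 5.87 ± 0.78 in double positive cells, 5.14 ± 0.76 in CD8 cells and 3.06 ± 0.84 in CD4 cells (log2, SD, n = 3 arrays each). It was 7.02-fold higher in double positive than in CD4 cells and lay at the threshold without passing it (log2 difference 2.81, SE 0.54, limma adjusted p = 0.051). The probe next in brightness passed, with a log2 difference of 2.80 (SE 0.46, adjusted p = 0.023), and the dimmest had 1.91 (SE 0.52, adjusted p = 0.224). Between double positive and CD8 cells the brightest probe differed by 0.73 (interval -0.44 to 1.89), and the 3 probes ranged over 0.55 to 0.75 with none passing. Between CD8 and CD4 cells the 3 probes differed by 1.36 to 2.09 (limma adjusted p from 0.109 to 0.83). Settings split on the double positive to CD4 call. It was made with slide as a random block (2.78, limma adjusted p = 0.0478), with the other percentile (0.0431), quantile scaling (0.0357), the deposited table (0.0352) and no filter (0.00174), and without double positive array 3 (0.0324) or CD8 array 3 (0.0443). It was not made with slide as a fixed block (2.30, adjusted p = 0.221), without double positive array 1 (0.331) or in the remaining settings other than the replicate block. The differences from CD4 cells within slides 2 and 3 were 2.52 and 2.19 for double positive cells.

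**Figure D2:**
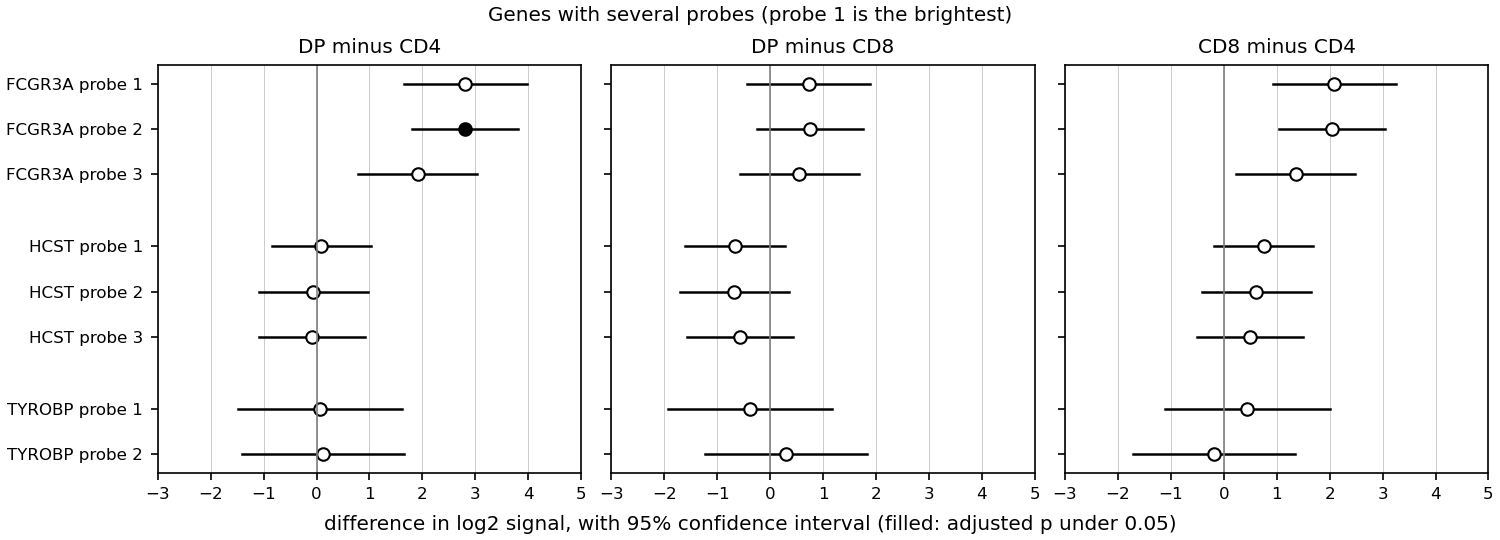
Log2 difference of each probe of the genes with more than 1 probe, with 95% intervals from the limma fit. The comparisons are double positive minus CD4, double positive minus CD8 and CD8 minus CD4 cells. Filled points passed and open points did not. All 3 FCGR3A probes were lower in CD4 cells than in either other fraction, and 1 of them passed, against double positive cells. None of the 3 HCST or 2 TYROBP probes passed in any comparison.

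CD96 was the member receptor found well above background in CD8 cells only. Its signals were 9.15, 7.72 and 3.16 units in double positive cells, 61.4, 152 and 76.2 units in CD8 cells, and 8.08, 6.34 and 7.16 units in CD4 cells. On the log2 scale they were -2.12, -2.46 and -2.59 in double positive cells, 1.74, 2.65 and 1.36 in CD8 cells, and -3.38, -1.26 and -2.01 in CD4 cells. All 3 CD8 arrays lay above all 6 others, and the double positive and CD4 arrays overlapped.

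Since no double positive and no CD4 array was well above background, the folds of CD96 are bounds, taken against the dimmest signal called well above background on each array. CD96 was at least 14.1-fold lower in double positive than in CD8 cells (log2 means -2.39 ± 0.24 and 1.92 ± 0.66, SD, n = 3 arrays each, limma adjusted p = 0.0128). It was at least 14.5-fold higher in CD8 than in CD4 cells (log2 means 1.92 ± 0.66 and -2.22 ± 1.07, SD, n = 3 arrays each, limma adjusted p = 0.00928). Between double positive and CD4 cells neither level was well above background and no fold is given. By the scanner's looser call, positive and significant against background, CD96 was found on 3 of 3 arrays in each fraction. The adjusted p belong to the fitted differences of -4.30 and 4.13, which use signals not well above background, and not to the bounds. The double positive to CD8 difference was -4.65 within slide 2 and -3.95 within slide 3. That call was lost with slide as a block (-4.30, limma adjusted p = 0.0854) and without double positive array 1 (0.0576), double positive array 2 (0.0567), CD8 array 1 (0.0527) or CD8 array 2 (0.109), at fitted differences of -4.44 to -3.94. With detection required on 6 arrays CD96 drops out of the tested probes, since it entered through the CD8 arrays alone. The CD8 to CD4 call was lost without CD8 array 2 (3.77, limma adjusted p = 0.0729), and normexp with quantile normalization gave -1.44 and 1.43 for the same 2 differences and kept both calls.

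The contrast between a receptor shared by both CD8-bearing fractions and the receptor of CD8 cells was then taken within each array, as the log2 value of CD96 minus that of KLRK1. The value ran from -5.56 to -3.15 on double positive arrays and from -2.57 to -0.59 on CD8 arrays, so the arrays did not overlap. The pair was taken for its pattern after values had been seen. CD96 was not well above background on the double positive arrays, so this is a description. An exact permutation over 20 splits of the arrays cannot give p under 0.1 and gave 0.1, so it decides nothing. For the other pairs of members tried, that permutation gave p of 0.1 to 0.3. How often other pairs of genes separate in this way was not counted.

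**Figure D3:**
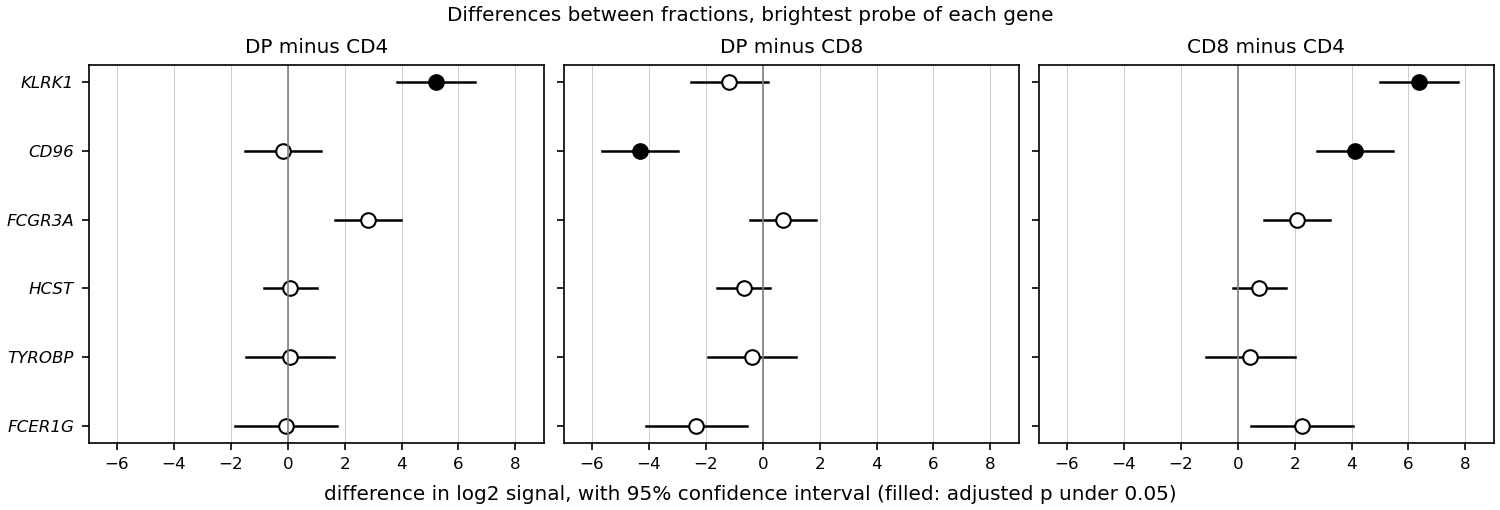
Log2 difference of the brightest probe of each tested member gene for double positive minus CD4, double positive minus CD8 and CD8 minus CD4 cells, with 95% intervals from the limma fit over all 16024 tested probes. KLRK1 lay at 5.21 against CD4 cells and at -1.17 against CD8 cells. The points of CD96 are fitted values that include levels not well above background in double positive and CD4 cells.

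NCR1, a marker of natural killer cells in several species, gave signals of 1.53 to 5.27 units over the 9 arrays. None was well above background in any fraction, and the gene was not tested. Its level could therefore not be measured in any fraction.

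The adaptor HCST was well above background on all 9 arrays. Its brightest probe gave 1208, 1101 and 361 units in double positive cells, 824, 1323 and 724 units in CD8 cells, and 1251, 576 and 632 units in CD4 cells. Relative to the 75th percentile these were 4.93, 4.69 and 4.25 in double positive cells, 5.48, 5.77 and 4.61 in CD8 cells, and 3.89, 5.24 and 4.45 in CD4 cells. The ranges of the 3 fractions overlapped, and the adaptor of KLRK1 was measured in CD4 cells where KLRK1 itself was near or below background.

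HCST differed by 0.09 log2 units between double positive and CD4 cells (interval -0.84 to 1.03) and by -0.66 between double positive and CD8 cells (interval -1.60 to 0.27). Between CD8 and CD4 cells it differed by 0.76 (interval -0.18 to 1.69). None of its 3 probes passed in any comparison. As a description, Pearson r between KLRK1 and HCST was 0.43 over the 9 arrays. The annotation of the pig genome places HCST beside TYROBP.

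TYROBP lay close to the detection limit. Its brighter probe gave 12.4, 10.6 and 18.2 units in double positive cells, 8.84, 6.87 and 36.0 units in CD8 cells, and 50.4, 3.46 and 13.8 units in CD4 cells. On the log2 scale these were -1.68, -2.004 and -0.06 in double positive cells, -1.06, -1.82 and 0.28 in CD8 cells, and -0.74, -2.14 and -1.07 in CD4 cells. The ranges overlapped, and the probe was well above background on 3 double positive, 1 CD8 and 2 CD4 arrays. The log2 differences were 0.07 between double positive and CD4 cells (interval -1.48 to 1.62), -0.38 between double positive and CD8 cells (interval -1.93 to 1.17) and 0.45 between CD8 and CD4 cells (interval -1.10 to 2.00). The dimmer probe gave 0.12, 0.29 and -0.18 for the same comparisons, so the sign depended on the probe where CD8 cells were involved, and no probe passed.

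FCER1G was highest and most even in CD8 cells. It gave 30.0, 7.68 and 69.7 units in double positive cells, 85.8, 91.9 and 107 units in CD8 cells, and 53.2, 10.3 and 38.5 units in CD4 cells. On the log2 scale these were -0.41, -2.47 and 1.88 in double positive cells, 2.22, 1.92 and 1.84 in CD8 cells, and -0.66, -0.56 and 0.42 in CD4 cells. Double positive array 2 was not well above background, double positive array 3 lay within the range of the CD8 arrays, and no CD4 array reached that range.

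FCER1G averaged -0.33 ± 2.17 in double positive cells, 2.00 ± 0.20 in CD8 cells and -0.27 ± 0.60 in CD4 cells (log2, SD, n = 3 arrays each). The difference of -2.33 between double positive and CD8 cells did not pass (SE 0.82, interval -4.11 to -0.55, limma adjusted p = 0.518). It was -4.54 within slide 2 and 0.03 within slide 3, without double positive array 2 it was -1.26, and without double positive array 3 it was -3.43 (limma adjusted p = 0.052). Between CD8 and CD4 cells the difference of 2.26 did not pass either (interval 0.48 to 4.04, limma adjusted p = 0.737), although the arrays did not overlap. Its receptor partner FCGR3A differed by 0.73 between double positive and CD8 cells, and the other partner, CD247, the T cell receptor zeta chain, differed by -0.25 with all 9 arrays well above background.

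Other receptors, partners and signalling genes were measured to place these members. Of a list of 31 other receptors and surface molecules of natural killer cells, 7 were on the array and 5 could be tested. These 5 were CD2, CD48, CD69, ITGAL and ITGB2, and limma called none in any comparison. KLRB1 and KIR2DL1 were on the array but too dim to be tested, so the counts do not cover them. Among the 5 tested genes the smallest p belonged to ITGAL, the alpha chain of the adhesion receptor LFA-1. It differed between double positive and CD4 cells by 1.03 log2 units (limma adjusted p = 0.939). CD48, a ligand of the receptor CD244, differed by 0.71 between double positive and CD4 cells (adjusted p = 1).

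Among 16 Fc receptors and ITAM partners, 11 were on the array and 8 could be tested. CD79A, a signalling chain of the B cell receptor, was lower in double positive than in CD8 cells (log2 difference -3.20, limma adjusted p = 0.0452), and no other gene of the list passed. Of 27 genes that act downstream of the adaptors, 5 were on the array and 3 could be tested. None passed in any comparison by limma. GRB2, which binds HCST, differed by 0.54 between double positive and CD8 cells, and LCK, the kinase that phosphorylates ITAMs in T cells, by -0.26 between CD8 and CD4 cells. Of 8 ligands of KLRK1 and CD96, 3 were on the array and none could be tested.

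Genes most like KLRK1 and CD96 over the 9 arrays differed from each other. Among 1503 genes, each by its brightest tested probe, the values of KLRK1 ran closest to those of SLA-DRA, an MHC class II chain (r of 0.99), CD8A (0.96), the adhesion receptor ADGRG1 (0.95), the MHC class II chain SLA-DQB1 (0.94) and the cytokine IFNG (0.94). FCGR3A came at place 26 with r of 0.80, and CD96 at place 101 with r of 0.56. The values of CD96 ran closest to those of UCHL1, a deubiquitinating enzyme (0.94), ASCC1 (0.93), the ribosomal protein gene RPS18 (0.91), WFDC2 (0.91) and GATM, an enzyme of creatine synthesis (0.89). These correlations share arrays and scaling and include the differences between fractions, so they are a description. CD96 and UCHL1 were both well above background on CD8 arrays only. Their r therefore includes dim values, and both entered the tested probes through the CD8 arrays.

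Markers of other blood cells moved with some of these results. The sort required CD3, which natural killer cells, B cells and monocytes lack. Of 9 natural killer markers, 3 were on the array, and their summed level, in multiples of the 75th percentile, was 0.195 to 0.292 on double positive arrays, 0.919 to 2.28 on CD8 arrays and 0.123 to 0.776 on CD4 arrays. As for CD96, the CD8 arrays were highest, but this sum and those of the lists below include signals not well above background. The highest CD4 sum, 0.776 on CD4 array 2, came with no marker well above background. NCR1 was well above background on no array. KLRB1 was well above background on 1 CD8 array. KIT was well above background on 0 of 3 double positive, 3 of 3 CD8 and 1 of 3 CD4 arrays. It was at least 3.24-fold lower in double positive than in CD8 cells (fitted log2 difference -3.41, limma adjusted p = 0.218 for the fit). Of 10 B cell markers, 5 were on the array, with sums of 7.26 to 16.5 on double positive arrays, 9.77 to 26.5 on CD8 arrays and 3.08 to 4.37 on CD4 arrays. BLNK was well above background on none of the 9 arrays. CD79A followed CD96. Its log2 values were -1.50 to 0.86 in double positive cells, 2.39 to 3.56 in CD8 cells and -0.10 to 0.64 in CD4 cells. The part of these markers in the result for CD96 was not tested. Of 6 gamma delta T cell markers, 2 were on the array, and CD163L1 was well above background on none of the 9 arrays. GATA3, a transcription factor also used by other T cells, was well above background on all 9, with log2 means of 3.00 in double positive cells, 0.63 in CD8 cells and 2.62 in CD4 cells (double positive minus CD8 2.37, limma adjusted p = 0.226).

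Of 16 monocyte markers, 10 were on the array, and their sums were 5.82 to 9.59 on double positive arrays, 4.44 to 12.2 on CD8 arrays and 2.89 to 4.64 on CD4 arrays. CD163, S100A8 and S100A9 were well above background on none of the 9 arrays. CD86 lay at 1.63 to 2.41 in double positive cells, -0.44 to 1.95 in CD8 cells and -1.51 to 0.76 in CD4 cells, an order like that of FCGR3A. It differed by 2.68 between double positive and CD4 cells (limma adjusted p = 0.168). S100A12 differed by -1.81 in that comparison (limma adjusted p = 1), and CD14 by -0.40, untested. Between double positive and CD8 cells CD86 differed by 1.35, and the other tested monocyte markers AIF1, LYZ and S100A12 by -1.67, -0.76 and -2.45, none passing. AIF1 resembled FCER1G array by array, with log2 values of -1.29, -2.26 and 0.75 in double positive cells, 0.66, 0.57 and 0.97 in CD8 cells, and -1.60, -0.97 and -1.09 in CD4 cells. The part of monocyte markers in the results for FCGR3A and FCER1G was not tested.

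**Figure D4:**
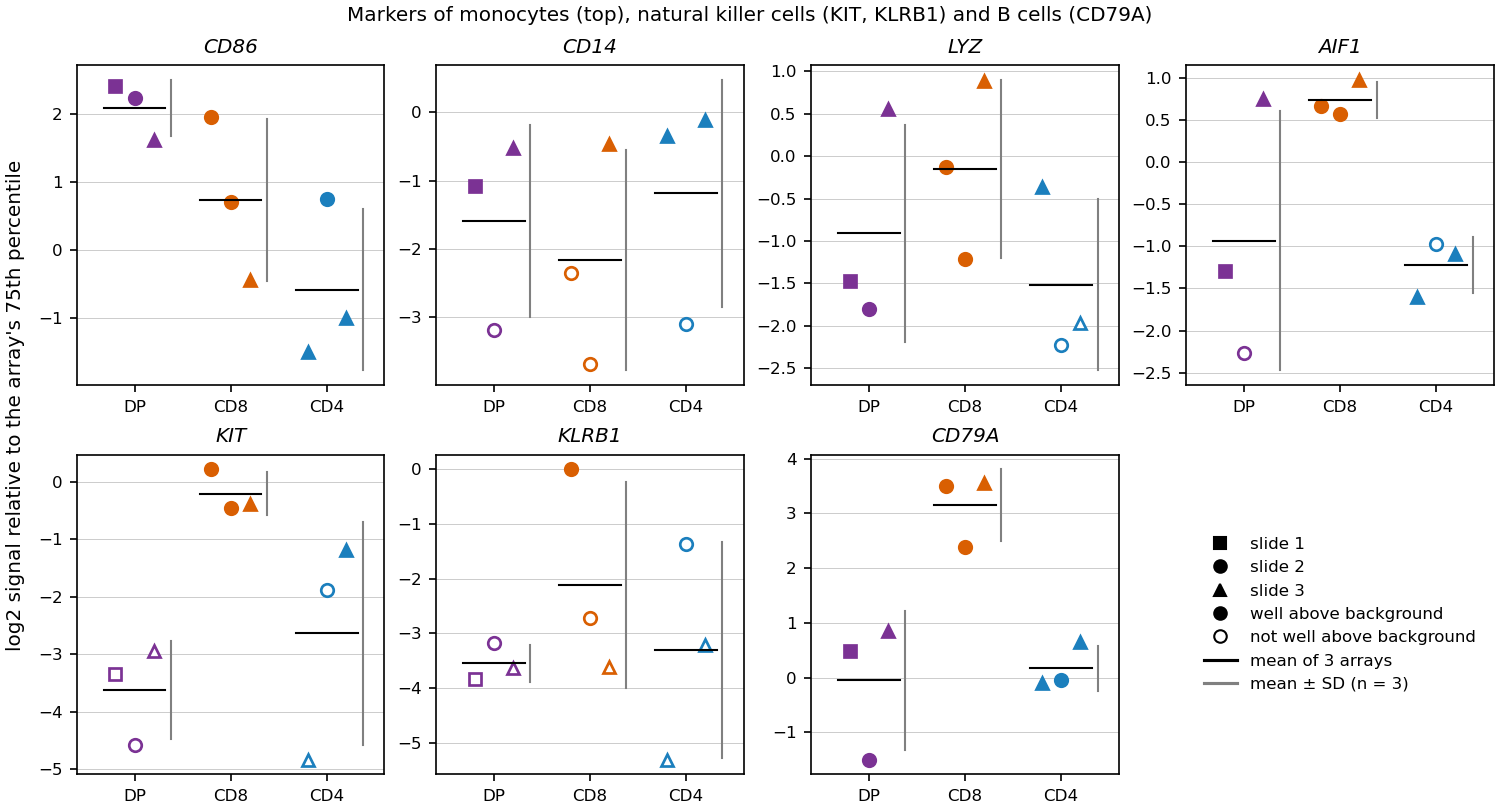
Log2 signal of single markers relative to the 75th percentile of the array, on each double positive, CD8 and CD4 array. The markers are CD86, CD14, LYZ and AIF1 for monocytes, KIT and KLRB1 for natural killer cells and CD79A for B cells. Each panel has a scale of its own. Point shape gives the slide, open points are not well above background, black lines are means and grey lines are mean ± SD. KIT was well above background on 0 of 3 double positive, 3 of 3 CD8 and 1 of 3 CD4 arrays, and KLRB1 on 1 CD8 array only.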

How the data were processed

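Total RNA of 9 sorted samples was measured on Agilent arrays of 1 colour. Per the file headers, spots were quantified with Agilent Feature Extraction 11.0.1.1, and their deposited processed signals are intensities on a linear scale, corrected for background by that program and not normalized between arrays. The same deposited files hold other values, the flags for detection, saturation and outliers. A deposited table of log2 values, with a median of 2.60 in all 9 columns, served as an alternative; its program, centring and scale factor are not given in the sources used here, and larger values in it meant brighter spots.

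Control and outlier spots (1 to 12 per array) were left out, spots of a probe were averaged, and log2 signals were set relative to the array's 75th percentile. Testing required detection well above background in 1 fraction or more, on each of its 3 arrays (16024 of 43603 probes). limma 3.58.1 in R 4.3.3 fitted all 9 arrays without a block, with Benjamini-Hochberg adjustment over all tested probes and a threshold of 0.05. Probes were named by transcript accession (6730 probes, 3052 genes). The brightest probe stood for a gene, list genes were named when called and otherwise as the 2 smallest p, and the 5 genes with the highest Pearson r were named as most alike. Members and lists were chosen with earlier results of these data known. The number of arrays limits precision. The fit was tested on simulated data. Alternatives changed background, scaling, filter, probe rule, fraction set, slide, replicate block and arrays; normexp used median signals and median backgrounds.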

Additional observations from a re-analysis of the deposited data

How the results depend on the processing

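The counts of probes called were 47 between double positive and CD4 cells (36 higher, 11 lower), 50 between double positive and CD8 cells and 70 between CD8 and CD4 cells. For double positive against CD4 cells the count was 2 with normexp and quantile normalization (both higher), 109 with no detection filter, 29 with the 2 fractions fitted alone and 2 with slide as a block. Against CD8 cells it was 22 with the percentile over probes detected on all arrays, 24 with the deposited table, 87 with no filter, 17 with detection on 6 arrays required, 22 with the 2 fractions alone and 2 with slide as a block. Between CD8 and CD4 cells slide as a block gave 38. With the replicate number as a block the counts were 144, 83 and 110 in that order of comparisons, and with CD8 arrays numbered as in the deposited values they were 30 and 21 for the first and second comparison. The numbers were not taken as pairing the arrays, since deviations of arrays with the same number correlated from -0.0673 to 0.647 and not every array correlated best with its own number. Between double positive and CD8 arrays alone these correlations were 0.266, 0.329 and 0.33, each the best match, but the scanner files and the deposited values number the CD8 arrays differently.

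Leaving out 1 array at a time gave 2 to 54, 1 to 51 and 31 to 83 calls. Between double positive and CD4 cells the low counts were 2 without double positive array 1, 23 without CD4 array 2 and 13 without CD4 array 3. Between double positive and CD8 cells they were 1, 9 and 32 without double positive arrays 1, 2 and 3, then 21, 3 and 18 without CD8 arrays 1, 2 and 3, and 15 and 25 without CD4 arrays 2 and 3. Between CD8 and CD4 cells they were 38, 31 and 46 without CD8 arrays 1, 2 and 3, and 41 and 39 without CD4 arrays 1 and 2.

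FCGR3A between double positive and CD4 cells had adjusted p of 0.00357 with the replicate block, and between CD8 and CD4 cells 0.00746; with the CD8 arrays renumbered these were 0.0639 and 0.236. Signs turned only for differences that were never called. FCER1G between double positive and CD4 cells became 0.20 with normexp, 0.029 with quantile scaling, 0.0061 with the deposited table and 0.18 with the slide block, and ran from -1.17 to 1.00 when arrays were left out. HCST in that comparison became -0.20 with the slide block and -0.016 as the mean of its probes, and ran from -0.22 to 0.45. TYROBP ran from -0.53 to 0.45, from -0.97 to 0.19 and from -0.13 to 0.92 in the 3 comparisons, and CD96 between double positive and CD4 cells from -0.75 to 0.31. The cause was not tested. Fewer samples or probes enter the fits that leave out arrays or filter more strictly.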

Other observations

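The adaptors HCST and TYROBP, neighbours in the annotation, differed in level by slide, in opposite directions. Slide 2 held 2 CD8 arrays and 1 CD4 array, and slide 3 held 1 CD8 array and 2 CD4 arrays, so slide and fraction are partly mixed here. HCST ran from 4.69 to 5.77 on the 4 arrays of slide 2 and from 3.89 to 4.61 on the 4 arrays of slide 3. TYROBP ran from -2.14 to -1.06 on slide 2, with 1 of 4 arrays well above background, and from -1.07 to 0.28 on slide 3, with 4 of 4. The 2 ranges of TYROBP overlapped at the edge. On the 1 array of slide 1 HCST lay at 4.93 and TYROBP at -1.68. How many of all tested probes differ by slide in this way was not counted. The monocyte marker CD14 ran from -3.68 to -2.35 on slide 2, where it was well above background on no array. It ran from -0.52 to -0.12 on slide 3, where it was well above background on 4 of 4.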
